A study of Rattus norvegicus with 10 samples.

Results

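The comparison described here set rat subcutaneous tissue taken 1 h after mechanical stimulation with a twirled needle (MS_E) against the same tissue taken before any therapy (CIA_B). Its members are the 2 MS_E and 2 CIA_B libraries, 4 of the 10 small RNA libraries of the series, and every miRNA with at least 1 cpm (reads per 1000000 reads of the library, scaled by TMM factors) in at least 5 of the 10 libraries, which kept 359 of the 723 mature miRNAs listed. The question is which miRNAs differ locally soon after the needle session. All rats were female Wistar animals with collagen-induced arthritis (CIA), raised by immunisation with bovine type II collagen in Freund's adjuvant and boosted once, and their age is not given in the sources used here. CIA_B rats had reached the onset of arthritis and had received no therapy. MS_E rats had received a puncture with a short needle at points of the lower back and below the knee on both sides, the needle being turned clockwise, and the labels name this acupuncture. Another group, PLA_E, had received a saline injection into the peritoneum and was also sampled after 1 h, and all animals were shaved. The remaining groups, MS_A and PLA_A, are the stimulated and placebo rats at 34 days, and each of the 5 groups holds 2 libraries. The paper describes the specimen as tissue from around the stimulated points that includes subcutaneous muscle, the labels call it muscle, while the text on the design also speaks of blood. Nothing states whether the 2 libraries of a group come from separate animals, so the p-values measure the spread between these libraries, which may be partly technical.

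Mature miRNAs are cut from hairpin precursors and guide the Argonaute proteins to messages that pair with them, mainly through the seed, the stretch at bases 2 to 8. miRNAs with the same seed can act on overlapping sets of messages. Many miRNAs are transcribed together from clusters or from the introns of host genes, so that their levels tend to follow a shared transcript, and many mark a cell type. In muscle, miR-1 and miR-133 are made by all fibres and miR-206 is richest in slow muscle of rodents, while miR-208b and miR-499 lie in genes of slow myosin heavy chains and mark slow fibres. Epithelia carry the miR-200 family and ciliated cells the miR-34 and miR-449 family, whereas myeloid cells carry miR-223 and red cells miR-451. In tissue libraries a smaller number of cells of a type and less of the RNA in each cell cannot be told apart.

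The sequences below are those of the miRNAs on which the comparison turns, from RefSeq (build GRCr8), with the seed in capitals. They were matched by name for 645 of the 723 names, for 324 of the 359 tested and for 21 of the 23 that passed the thresholds of the study, which carry 19 different seeds. The pair that mark slow fibres differ from each other at 1 base of the seed. miR-499-5p lies on the plus strand at chr3:164570616-164570636, within the locus of the myosin gene Myh7b, and miR-208b-3p lies on the minus strand at chr15:32421648-32421665, within that of Myh7.
miR-499-5p: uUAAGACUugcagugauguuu
miR-208b-3p: aUAAGACGaacaaaaggu
The next set are the neighbours miR-181c and miR-181d. The arms that were lower in MS_E, miR-181c-3p and miR-181d-5p, lie within 154 bases of each other on the plus strand (chr19:40888353-40888506) and have different seeds, while miR-181c-5p shares the seed of miR-181d-5p.
miR-181c-3p: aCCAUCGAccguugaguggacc
miR-181c-5p: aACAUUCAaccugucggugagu
miR-181d-5p: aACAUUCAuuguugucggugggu
In the miR-17/92 cluster, 648 bases on the plus strand at chr15:98587861-98588508 hold miR-17-5p, miR-19a-3p, miR-20a-5p and a copy of miR-19b-3p. miR-19a-3p and miR-19b-3p differ at 1 of 23 bases, and miR-17-5p and miR-20a-5p at 2 of 23, in both cases outside the seed. Such close copies can share misassigned reads.
miR-19a-3p: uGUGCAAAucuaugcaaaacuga
miR-19b-3p: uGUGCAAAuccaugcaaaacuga
miR-17-5p: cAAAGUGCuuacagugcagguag
miR-20a-5p: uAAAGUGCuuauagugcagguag
Both arms of the miR-675 hairpin lie within the noncoding gene H19, on the minus strand at chr1:207161766-207161821, and both were higher in MS_E although they share no seed.
miR-675-5p: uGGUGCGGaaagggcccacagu
miR-675-3p: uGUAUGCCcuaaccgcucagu
The next sequences mark blood cells and inflammation, and miR-146a-5p is shown since it shares the seed of miR-146b-5p.
miR-223-3p: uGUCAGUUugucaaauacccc
miR-451-5p: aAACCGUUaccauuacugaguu
miR-146b-5p: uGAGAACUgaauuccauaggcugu
miR-146a-5p: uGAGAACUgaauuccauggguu
The last set mark epithelia, apart from miR-34a-5p, which many cells make and which is shown for its seed. miR-141-3p and miR-200c-3p lie within 450 bases on the minus strand (chr4:159209540-159209989) and differ at 1 base of the seed. The 3 tested members of the miR-34 and miR-449 family share one seed.
miR-141-3p: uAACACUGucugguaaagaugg
miR-200c-3p: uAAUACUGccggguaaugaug
miR-34a-5p: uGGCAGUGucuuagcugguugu
miR-34c-5p: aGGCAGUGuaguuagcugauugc
miR-449a-5p: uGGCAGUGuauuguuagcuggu
miR-375-3p: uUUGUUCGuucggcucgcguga

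Before any comparison, the libraries stand apart in ways that the groups do not explain. In 5 of the 10 libraries miR-1-3p lay between 80400 and 123000 cpm, and in the other 5 between 10110 and 15560 cpm, and miR-206 split the same libraries, while miR-133a ranged from 67920 to 139400 cpm without such a split. Each group holds 1 library of each kind, so that MS_E replicate 1 and CIA_B replicate 2 have low miR-1, and MS_E replicate 2 and CIA_B replicate 1 have high miR-1. These miRNAs of muscle were abundant in both kinds, with miR-206 at no less than 1143 cpm in any library. What the split reflects was not tested. The 4 libraries compared hold between 1513799 reads (CIA_B replicate 1) and 8926170 reads (MS_E replicate 1), a ratio of 5.90, and 3 reads correspond to 2.6 cpm in the smallest and to at most 0.468 cpm in the other 3. A single miRNA, miR-10b-5p, took between 17.8% and 51.8% of the reads of these 4 libraries, with the highest share in MS_E replicate 1. That library also carried miRNAs of epithelia at levels seen in no other, which is taken up with the values concerned.

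The study called a miRNA differential when it changed more than 2-fold with an unadjusted p under 0.05, and by these thresholds 23 of the 359 miRNAs (6.41%) differed between MS_E and CIA_B in the quasi-likelihood test of edgeR. Of these, 19 were higher in MS_E (5.29% of the miRNAs tested) and 4 lower (1.11%). After adjustment 0 of 359 stayed under 0.05 in edgeR (smallest adjusted p 0.373, 23 with an unadjusted p under 0.05), and 0 in limma-voom, and in DESeq2 8 did, all of them among the 23. Of the 23, limma-voom kept 15 past the thresholds and lost miR-34c-5p, miR-449a-5p, miR-375-3p, miR-141-3p, miR-146b-5p, miR-451-5p, miR-130b-3p and miR-224-5p. Over all 359 miRNAs the median log2 fold change was 0.06, with 197 above 0 and the central 90% between -0.82 and 1.72. The MS_E libraries both lay above both CIA_B libraries for 18.4% of the miRNAs tested and below both for 13.1%, against 15 of the 19 that were called higher and 4 of the 4 called lower. The test uses the same values, so the last counts describe the calls and lend them no weight. In the plot of levels by library the 23 fall into those in which both MS_E libraries moved and those in which 1 of them did.

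**Figure D1:**
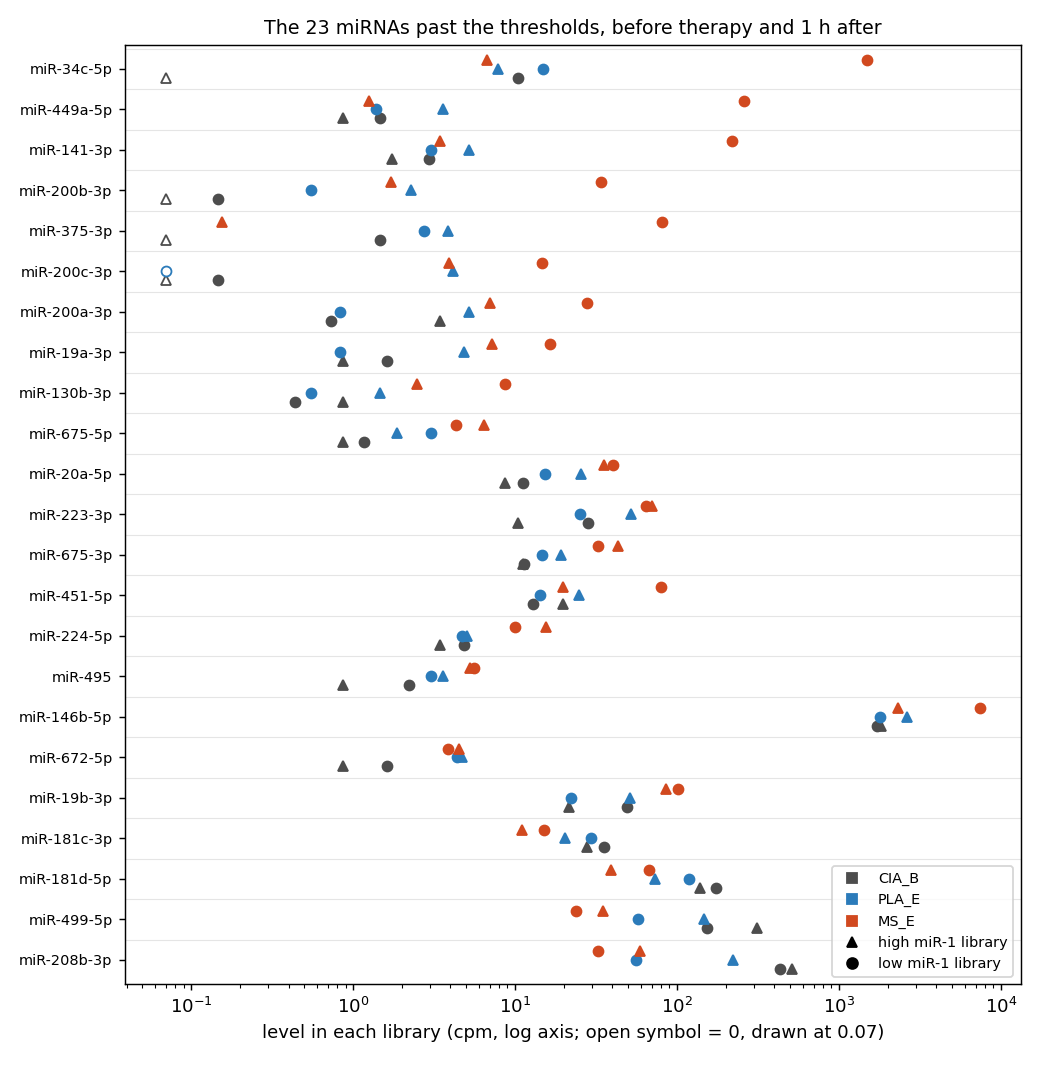
Level of each of the 23 miRNAs in the 2 libraries of CIA_B (grey), PLA_E (blue) and MS_E (orange), in cpm on a log axis, ordered by fitted fold change. Triangles are libraries with high miR-1 and circles libraries with low miR-1, and open symbols stand for 0 reads. miR-208b-3p and miR-499-5p lie far to the left of CIA_B in both MS_E libraries, whereas miR-34c-5p, miR-449a-5p, miR-141-3p and miR-375-3p lie far to the right in MS_E replicate 1 alone.

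The largest decreases were those of the slow-fibre pair. miR-208b-3p stood at 513 and 433 cpm in CIA_B and at 32.7 and 59.6 cpm in MS_E. Both MS_E libraries were lower than both CIA_B libraries, and the fitted log2 fold change was -3.35 ± 1.12 (SE, n = 2 and 2), a 10.2-fold lower level (edgeR unadjusted p = 0.0149, adjusted p = 0.446). miR-499-5p stood at 313 and 153 cpm in CIA_B and at 23.8 and 34.8 cpm in MS_E. Its log2 fold change was -2.97 ± 0.86, or 7.85-fold lower (edgeR unadjusted p = 0.00684, adjusted p = 0.373), and its MS_E levels were the lowest of all 10 libraries. DESeq2 gave adjusted p-values of 0.0377 for miR-208b-3p and 0.0161 for miR-499-5p. The passenger arm miR-499-3p was near the floor, with 3 and 7 reads in CIA_B and 1 and 2 reads in MS_E, and did not pass (log2 fold change -1.68 ± 1.44, edgeR unadjusted p = 0.0916). The slow-fibre list thus had 2 of 3 tested members lower and 0 higher, where 1.11% of all miRNAs were lower, with a median log2 fold change of -2.97 beside 0.06 for all miRNAs. Without MS_E replicate 1 miR-208b-3p came to -3.03 and did not pass, so that 1 member was left. Of the 6 tested members of the skeletal muscle list 0 passed, and their log2 fold changes lay between -0.39 and 0.32. miR-206-3p, of that list, was at 14930 and 1867 cpm in CIA_B and at 1665 and 16100 cpm in MS_E, and its level followed the kind of library. miR-133a-3p, which all fibres make, was at 117200 and 77100 cpm in CIA_B and at 67920 and 93910 cpm in MS_E, and the ranges overlap. Summed over their list, the slow-fibre miRNAs gave 829 and 587 cpm in CIA_B, 57.1 and 94.8 cpm in MS_E, and 373 and 114 cpm in PLA_E. Whether the specimens held different shares of slow fibres was not tested.

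A pair of arms of the neighbouring miR-181c and miR-181d hairpins were also lower. miR-181d-5p stood at 139 and 175 cpm in CIA_B and at 67.2 and 39.0 cpm in MS_E, with a log2 fold change of -1.56 ± 0.48 (edgeR unadjusted p = 0.0101, adjusted p = 0.373). miR-181c-3p stood at 27.7 and 35.3 cpm in CIA_B and at 15.1 and 11.1 cpm in MS_E, with a log2 fold change of -1.25 ± 0.46 (edgeR unadjusted p = 0.022, adjusted p = 0.581). For both, the MS_E libraries were the lowest 2 of all 10. The miR-181 family is best known from lymphocytes and vessels, and its most abundant member here, miR-181a-5p, was at 11230 and 15820 cpm in CIA_B and at 16390 and 8754 cpm in MS_E, so that the groups overlap. In all, 2 of the 8 tested members of the family were lower and 0 higher, and all 8 fitted changes were below 0, with a median of -0.56, beside 1.11% of all miRNAs lower and 197 of 359 above 0. Without MS_E replicate 2 neither of the 2 passed (-1.22 for miR-181d-5p and -1.05 for miR-181c-3p), and without CIA_B replicate 2 only miR-181d-5p did. The main arm miR-181c-5p had 626 and 911 cpm in CIA_B against 620 and 348 cpm in MS_E and did not pass (log2 fold change -0.67 ± 0.46, edgeR unadjusted p = 0.179).

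Among the miRNAs that were higher in both MS_E libraries, 3 belong to the miR-17/92 cluster, whose products are known to act on cell cycle inhibitors. miR-20a-5p stood at 8.65 and 11.2 cpm in CIA_B and at 40.1 and 35.6 cpm in MS_E. The MS_E libraries were close to each other and well apart from CIA_B, and the log2 fold change was 1.88 ± 0.54 (edgeR unadjusted p = 0.00597, adjusted p = 0.373). miR-19a-3p stood at 0.865 and 1.62 cpm in CIA_B, which are 1 and 11 reads, and at 16.5 and 7.18 cpm in MS_E, with a log2 fold change of 2.81 ± 0.88 (edgeR unadjusted p = 0.0065, adjusted p = 0.373). miR-19b-3p, which shares its seed, stood at 21.6 and 49.0 cpm in CIA_B and at 102 and 85.7 cpm in MS_E, with a log2 fold change of 1.38 ± 0.58 (edgeR unadjusted p = 0.0409, adjusted p = 0.699). Of the 4 fits that leave out a library, miR-19b-3p passed in 1, and its log2 fold change ranged from 0.88 without CIA_B replicate 1 to 2.10 without CIA_B replicate 2. Of the 16 tested members of the cluster and its paralogs, 3 were higher and 0 lower and 13 had a fitted change above 0, beside 5.29% of all miRNAs higher and 197 of 359 above 0, and the median log2 fold change was 0.81. The count was 2 without MS_E replicate 1 and 5 without MS_E replicate 2. Other miRNAs with the seed of miR-20a-5p did not pass. miR-17-5p had 22.5 and 15.7 cpm in CIA_B and 28.3 and 47.6 cpm in MS_E (log2 fold change 0.99 ± 0.65, edgeR unadjusted p = 0.154), and the more abundant miR-93-5p gave a smaller fold change (0.20 ± 0.40, edgeR unadjusted p = 0.628). The most abundant product of the cluster, miR-92a-3p, had 564 and 890 cpm in CIA_B and 1773 and 577 cpm in MS_E (0.69 ± 0.56, edgeR unadjusted p = 0.248). Members of 1 cluster therefore ranged from changes past the thresholds to groups that overlap.

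Both arms of miR-675, the miRNA released from the imprinted noncoding RNA H19, were higher. miR-675-3p stood at 11.3 and 11.3 cpm in CIA_B and at 32.4 and 43.6 cpm in MS_E, with a log2 fold change of 1.72 ± 0.46 (edgeR unadjusted p = 0.00422, adjusted p = 0.373, DESeq2 adjusted p = 0.049). miR-675-5p stood at 0.865 and 1.18 cpm in CIA_B, which are 1 and 8 reads, and at 4.32 and 6.40 cpm in MS_E, with a log2 fold change of 1.98 ± 0.70 (edgeR unadjusted p = 0.00944, adjusted p = 0.373). For each arm the MS_E libraries were the highest 2 of all 10, and the other libraries did not go beyond 19.2 cpm for miR-675-3p and 3.03 cpm for miR-675-5p. H19 is known as a foetal and regenerating-muscle transcript. Of the 4 tested members of the H19 and Igf2 list, 2 were higher and 0 lower, beside 5.29% of all miRNAs higher, with a median log2 fold change of 1.52, and miR-675-5p did not pass without MS_E replicate 2 (1.69) or CIA_B replicate 2 (2.20). miR-675 was the only hairpin of which both arms passed: among the 23, the opposite arm was tested for 5, its fitted change had the direction of its partner in 4, and the 2 that passed are these.

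Markers of myeloid and red cells gave 3 further increases, which differ in how the libraries share them. miR-223-3p, made by granulocytes and monocytes, stood at 10.4 and 28.1 cpm in CIA_B and at 64.7 and 70.1 cpm in MS_E. The MS_E libraries were the highest 2 of all 10, the next being 57.4 cpm, and the log2 fold change was 1.75 ± 0.57 (edgeR unadjusted p = 0.0128, adjusted p = 0.418). miR-146b-5p, induced in inflammation, stood at 1819 and 1730 cpm in CIA_B and at 7429 and 2306 cpm in MS_E, with a log2 fold change of 1.46 ± 0.60 (edgeR unadjusted p = 0.0381, adjusted p = 0.684). miR-451-5p, the red cell miRNA, stood at 19.9 and 12.9 cpm in CIA_B and at 79.8 and 19.8 cpm in MS_E, with a log2 fold change of 1.60 ± 0.70 (edgeR unadjusted p = 0.0454, adjusted p = 0.721). The last 2 were high in MS_E replicate 1 only: without it the log2 fold change was 0.32 for miR-146b-5p and 0.24 for miR-451-5p, and neither passed. miR-223-3p passed without either MS_E library, at 1.71 and 1.69, but came to 1.19 without CIA_B replicate 1, where it did not pass, and to 2.65 without CIA_B replicate 2. Its other arm, miR-223-5p, was at 1.73 and 2.35 cpm in CIA_B and at 1.39 and 1.09 cpm in MS_E and did not pass (log2 fold change -0.63 ± 0.88, edgeR unadjusted p = 0.397). In the myeloid and inflammation list 2 of 10 tested members were higher and 0 lower, beside 5.29% of all miRNAs, with a median log2 fold change of 0.77. That count was 0 without CIA_B replicate 1, 1 without CIA_B replicate 2 or MS_E replicate 1, and 4 without MS_E replicate 2. In the red cell list 1 of 3 was higher, with a median of 0.89, and 0 without MS_E replicate 1 or either CIA_B library, in limma-voom, and with a term for the kind of library. None of the 6 lymphoid and pan-leukocyte miRNAs passed. Among these miR-150-5p was at 572 and 343 cpm in CIA_B and at 256 and 1381 cpm in MS_E, and miR-142-5p at 101 and 209 cpm in CIA_B and at 258 and 303 cpm in MS_E (log2 fold change 0.85 ± 0.86, edgeR unadjusted p = 0.35). The part of blood held in the specimens was not tested.

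Another 4 miRNAs were higher in MS_E at low levels. miR-130b-3p, of a family tied to vessel growth, had 1 and 3 reads in CIA_B and 56 and 16 reads in MS_E, so that the ratio of the pooled and scaled reads was 11.1 with an exact 95% counting interval from 4.16 to 41.9, and the fit passed (edgeR unadjusted p = 0.0323, adjusted p = 0.609). With MS_E replicate 2 alone the ratio was 4.97 (1.60 to 20.4). The fitted log2 fold change of 2.68 became 1.56 without MS_E replicate 1, and the fit passed only when MS_E replicate 2 was the library left out. Its seed partner miR-130a-3p, much more abundant, was at 125 and 238 cpm in CIA_B and at 221.2 and 219.6 cpm in MS_E and did not pass. miR-224-5p, from an intron of Gabre, stood at 3.46 and 4.85 cpm in CIA_B and at 10.0 and 15.6 cpm in MS_E (log2 fold change 1.50 ± 0.69, edgeR unadjusted p = 0.0473). miR-495, of the imprinted Dlk1-Dio3 cluster, stood at 0.865 and 2.21 cpm in CIA_B and at 5.56 and 5.31 cpm in MS_E (1.46 ± 0.60, edgeR unadjusted p = 0.0243). It was the 1 member that passed among 55 tested of that cluster, of which 37 had a fitted change above 0, with a median of 0.29, while 5.29% of all miRNAs were higher and 197 of 359 above 0. miR-672-5p stood at 0.865 and 1.62 cpm in CIA_B and at 3.86 and 4.53 cpm in MS_E (1.39 ± 0.63, edgeR unadjusted p = 0.0316), beside 4.69 and 4.41 cpm in PLA_E. miR-224-5p and miR-672-5p passed in none of the 4 fits that leave out a library, and miR-495 only without CIA_B replicate 2.

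The largest fitted increases belong to miRNAs of epithelia, and they rest mainly on MS_E replicate 1. miR-34c-5p stood at 0 and 10.4 cpm in CIA_B and at 1496 and 6.71 cpm in MS_E. MS_E replicate 1 was thus far above all other libraries, the next being 17.6 cpm at 34 days, while MS_E replicate 2 lay within the range of CIA_B, and the log2 fold change of 6.87 ± 2.16 (edgeR unadjusted p = 0.0104) became 0.03 without MS_E replicate 1. miR-449a-5p, of the same seed, stood at 0.865 and 1.47 cpm in CIA_B and at 258 and 1.25 cpm in MS_E, and its log2 fold change of 6.31 ± 1.93 (edgeR unadjusted p = 0.00714) became -0.10 without that library. The other miRNA of this seed, miR-34a-5p, a p53 target that many cells make, was at 9.52 and 17.5 cpm in CIA_B and at 42.3 and 29.7 cpm in MS_E and did not pass (1.36 ± 0.77, edgeR unadjusted p = 0.106). miR-375-3p, of endocrine and other epithelial cells, stood at 0 and 1.47 cpm in CIA_B and at 81.2 and 0.156 cpm in MS_E, and its log2 fold change of 4.89 ± 2.05 (edgeR unadjusted p = 0.0296) turned to -1.44 without MS_E replicate 1. miR-141-3p stood at 1.73 and 2.94 cpm in CIA_B and at 220 and 3.43 cpm in MS_E, and its log2 fold change of 5.29 ± 1.61 (edgeR unadjusted p = 0.00766) became 0.33 without that library. These 4 had DESeq2 adjusted p-values of 0.0386, 0.00141, 0.049 and 0.00277, so that an adjusted p under the threshold was reached by values that 1 library carried. In limma-voom, the test the study used, none of the 4 passed (unadjusted p = 0.157, 0.217, 0.461 and 0.151).

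The rest of the miR-200 family, which holds epithelial cells in their state by repressing Zeb1 and Zeb2, was higher in both MS_E libraries, though far more in replicate 1. miR-200b-3p had 0 and 1 reads in CIA_B, or 0 and 0.147 cpm, and stood at 34.1 and 1.72 cpm in MS_E. The ratio of pooled and scaled reads was 143.3 with an exact 95% counting interval from 25.5 to 5683, and with MS_E replicate 2 alone it was 13.7 with an interval from 1.99 to 588 (edgeR unadjusted p = 0.00292 with both libraries, DESeq2 adjusted p = 0.00501). miR-200c-3p had 0 and 1 reads in CIA_B and 95 and 25 reads in MS_E, a ratio of 74.1 (13.05 to 2951), and of 31.1 (5.08 to 1275) with MS_E replicate 2 alone (edgeR unadjusted p = 0.0234 with both libraries). miR-200a-3p stood at 3.46 and 0.735 cpm in CIA_B and at 27.9 and 7.03 cpm in MS_E, with a log2 fold change of 3.12 ± 1.31 (edgeR unadjusted p = 0.0282) and of 1.82 without MS_E replicate 1. These intervals hold counting error alone, and reads amplified by PCR are not separate molecules. All 4 tested members of the family were higher, beside 5.29% of all miRNAs, and without MS_E replicate 1 only miR-200b-3p still passed, without CIA_B replicate 1 the count was 3 and without CIA_B replicate 2 it was 2. Summed over the 9 names of the family, MS_E held 312 and 18.1 cpm, CIA_B 5.19 and 4.26 cpm, and PLA_E 17.6 and 4.97 cpm. The placebo library with high miR-1 therefore came within 1 cpm of the MS_E library of the same kind, and the highest sum in the 34 day libraries was 40.4 cpm.

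Among the skin epithelium markers, miR-203a-3p was at 11.3 and 34.1 cpm in CIA_B and at 68.4 and 41.5 cpm in MS_E (log2 fold change 1.23 ± 0.58, edgeR unadjusted p = 0.0589), and miR-205 was at 17.3 and 32.5 cpm in CIA_B and at 69.2 and 59.0 cpm in MS_E (1.33 ± 0.62, edgeR unadjusted p = 0.0587), and neither passed. For both, each MS_E library exceeded each CIA_B library, as it did for 18.4% of all miRNAs. Of the 5 tested members of the skin list 1, miR-375-3p, was past the thresholds, beside 6.41% of all miRNAs, with a median log2 fold change of 1.23, and the count was 0 without MS_E replicate 1 or CIA_B replicate 1 and 3 without MS_E replicate 2. The ciliated list summed to 1.73 and 12.8 cpm in CIA_B and to 1895 and 9.37 cpm in MS_E, with 2 of 2 tested members higher in the fit of all libraries (5.29% of all miRNAs were), 1 without CIA_B replicate 1 and 0 without MS_E replicate 1. How skin or other epithelium in the specimen bears on these values was not tested.

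**Figure D2:**
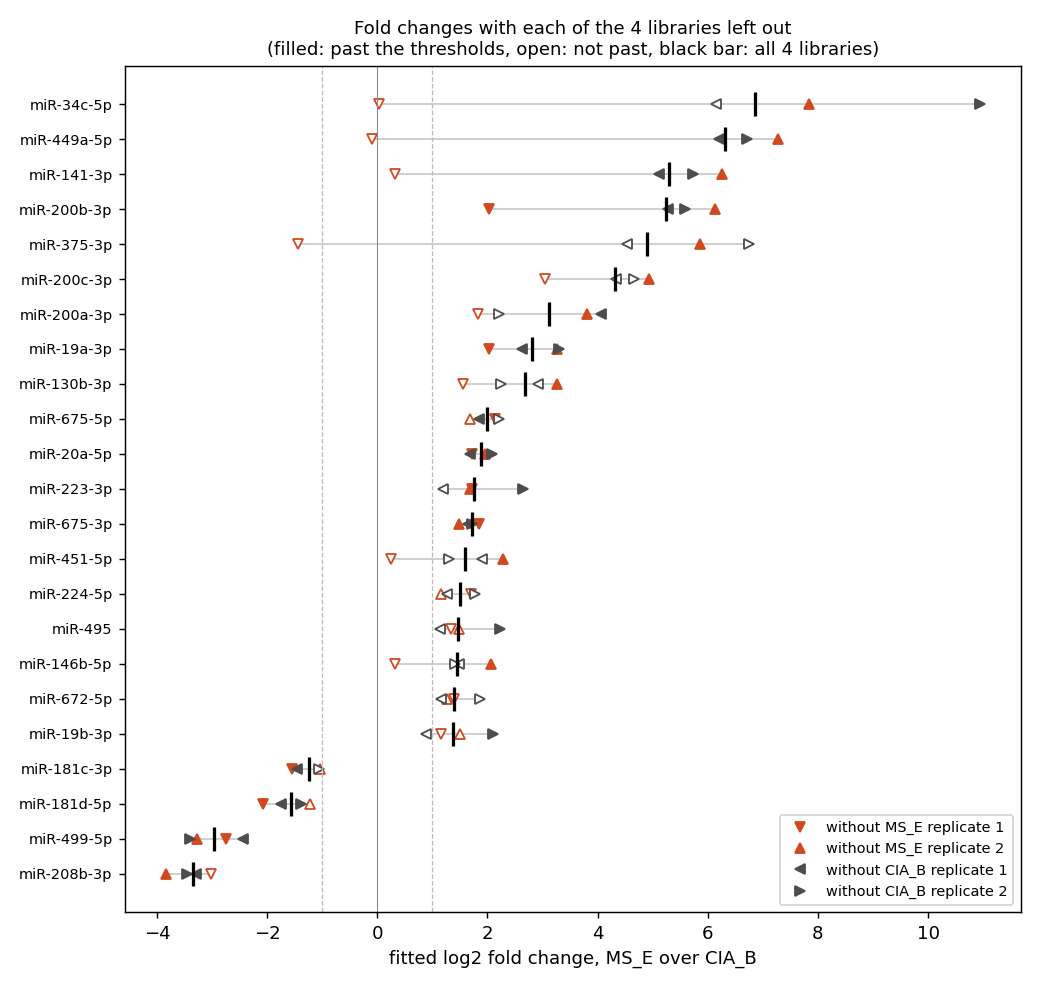
Fitted log2 fold change of the 23 miRNAs, MS_E over CIA_B, with all libraries (black bar) and when any 1 of the 4 compared libraries is dropped. Filled symbols pass the thresholds and open symbols do not, and dashed lines mark 2-fold. miR-34c-5p, miR-449a-5p, miR-141-3p, miR-375-3p, miR-146b-5p and miR-451-5p come to between -1.44 and 0.33 without MS_E replicate 1, while miR-499-5p, miR-20a-5p and miR-675-3p stay past the thresholds whichever library is left out.

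Leaving out 1 library at a time separates the 23 miRNAs further. Without MS_E replicate 1, 9 still passed, namely miR-499-5p, miR-181c-3p, miR-181d-5p, miR-19a-3p, miR-20a-5p, miR-200b-3p, miR-223-3p and both arms of miR-675. Without MS_E replicate 2, 16 still passed. Past the thresholds whichever of the 4 libraries was left out were 5, miR-499-5p, miR-19a-3p, miR-20a-5p, miR-200b-3p and miR-675-3p. A change of more than 2-fold in 1 direction in all 4 fits was kept by 16, and 6 lost it without MS_E replicate 1. The fits without a library assume that the lone sample of its group varies as the others do.

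Because each group holds 1 library of each kind, MS_E and CIA_B can also be compared within a kind, MS_E replicate 1 with CIA_B replicate 2 (low miR-1) and MS_E replicate 2 with CIA_B replicate 1 (high miR-1), as log2 ratios of cpm + 1 with no test. Of the 359 miRNAs, 90 differed by more than 2-fold in the first pair and 86 in the second, 20 in both in the same direction and 12 in both in opposite directions. Of the 20, 13 were higher and 7 lower, and 14 were among the 23. The 6 others were miR-205, miR-34a-5p and miR-433-3p, which were higher, and miR-30a-3p, miR-30e-3p and miR-6328, which were lower. miR-30e-3p, a passenger arm of the miR-30 family, was at 755 and 1257 cpm in CIA_B and at 474 and 264 cpm in MS_E, with log2 ratios of -1.40 and -1.51 in the pairs. miR-208b-3p gave -3.68 and -3.08, miR-499-5p -2.63 and -3.13, miR-20a-5p 1.76 and 1.92, and miR-675-3p 1.44 and 1.86, so that the 2 pairs were close for each. For miR-449a-5p the pairs gave 6.71 and 0.27, and for miR-141-3p 5.81 and 0.70. For miR-34c-5p the pairs gave 7.03 and 2.95, the latter against 0 reads in CIA_B replicate 1. For miR-451-5p they gave 2.54 and -0.01.

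**Figure D3:**
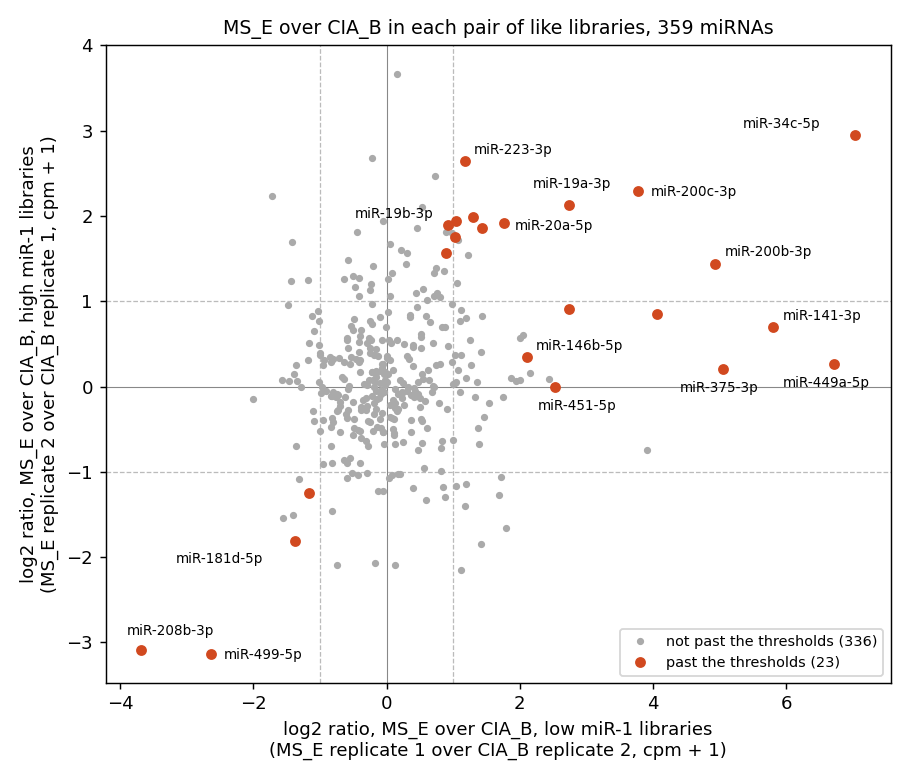
Log2 ratio of MS_E over CIA_B (cpm + 1) for each of the 359 miRNAs, in the pair of libraries with low miR-1 (x axis) and in the pair with high miR-1 (y axis), with the 23 past the thresholds in orange and dashed lines at 2-fold. miR-208b-3p and miR-499-5p stand alone at the lower left, at or beyond -2.63 on both axes, and miR-449a-5p, miR-375-3p and miR-141-3p lie far to the right but below 0.70 on the y axis. miR-34c-5p, also far to the right at 7.03, lies at 2.95 on the y axis.

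With a term for the kind of library in the edgeR fit, 41 miRNAs passed in place of 23, of which 22 are shared (miR-451-5p was lost, unadjusted p = 0.0509), and again 0 had an adjusted p under 0.05 (46 with an unadjusted p under 0.05). The 19 added calls include miR-30a-3p (log2 fold change -1.19 ± 0.31, unadjusted p = 0.00464, adjusted p = 0.176), miR-30e-3p (-1.47 ± 0.39, unadjusted p = 0.00485, adjusted p = 0.176), miR-34a-5p (1.49 ± 0.43, unadjusted p = 0.00675, adjusted p = 0.176), miR-203a-3p (1.29 ± 0.43, unadjusted p = 0.014, adjusted p = 0.212) and miR-205 (1.34 ± 0.59, unadjusted p = 0.0488, adjusted p = 0.381). miR-145-5p, of smooth muscle, was added too, with a mean of 196 cpm in CIA_B and 446 cpm in MS_E (1.11 ± 0.32, unadjusted p = 0.00739). The far more abundant miR-143-3p of the same list was at 53910 and 73370 cpm in CIA_B and at 77610 and 26330 cpm in MS_E, with a log2 fold change of -0.50 in that fit (unadjusted p = 0.206), and miR-145-3p had -0.49 (unadjusted p = 0.24). Without the term, 0 of the 4 tested smooth muscle miRNAs passed, with a median of -0.10. Another added call was miR-99b-5p, at 5908 and 4533 cpm in CIA_B and 2697 and 1386 cpm in MS_E (-1.52 ± 0.43, unadjusted p = 0.00722). The slow-fibre arm miR-499-3p was added as well (-1.865 ± 0.852, unadjusted p = 0.00543, adjusted p = 0.176). It had 3 and 7 reads in CIA_B and 1 and 2 reads in MS_E.

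Of the 31 lists examined, 13 had a member past the thresholds and 18 had none. Beyond those already given, the lists with 0 members past the thresholds include the let-7 family (18 tested, log2 fold changes from -0.44 to 1.10), the miR-30 family (11 tested, -1.45 to 1.18), the miR-23/27/24 clusters (9 tested, all below 0, -0.82 to -0.10), the miR-29 family that represses collagens (6 tested, -0.18 to 1.28), the endothelial list (5 tested, -0.68 to 0.83) and the fibroblast list (3 tested, -0.52 to 0.19). miR-126a-5p, the main endothelial miRNA, was at 11890 and 7037 cpm in CIA_B and at 3501 and 8284 cpm in MS_E. miR-29a-3p was at 996 and 1162 cpm in CIA_B and at 663 and 1245 cpm in MS_E. miR-199a-3p, of fibroblasts, was at 1306 and 3024 cpm in CIA_B and at 1795 and 1231 cpm in MS_E. In each the groups overlap. Of the 20 tested miRNAs known to respond to flow or stretch, 1 passed, beside 6.41% of all miRNAs, with a median log2 fold change of -0.01. It was miR-19a-3p, which the miR-17/92 list also holds. The count was 2 without MS_E replicate 1, 6 without MS_E replicate 2, 2 with DESeq2 and 3 with the term for the kind of library. miR-21-5p, raised in many injured tissues, was at 1461 and 3066 cpm in CIA_B and at 4166 and 3127 cpm in MS_E and did not pass (0.69 ± 0.53, edgeR unadjusted p = 0.226). A p that misses the threshold does not show that a miRNA was level.

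**Figure D4:**
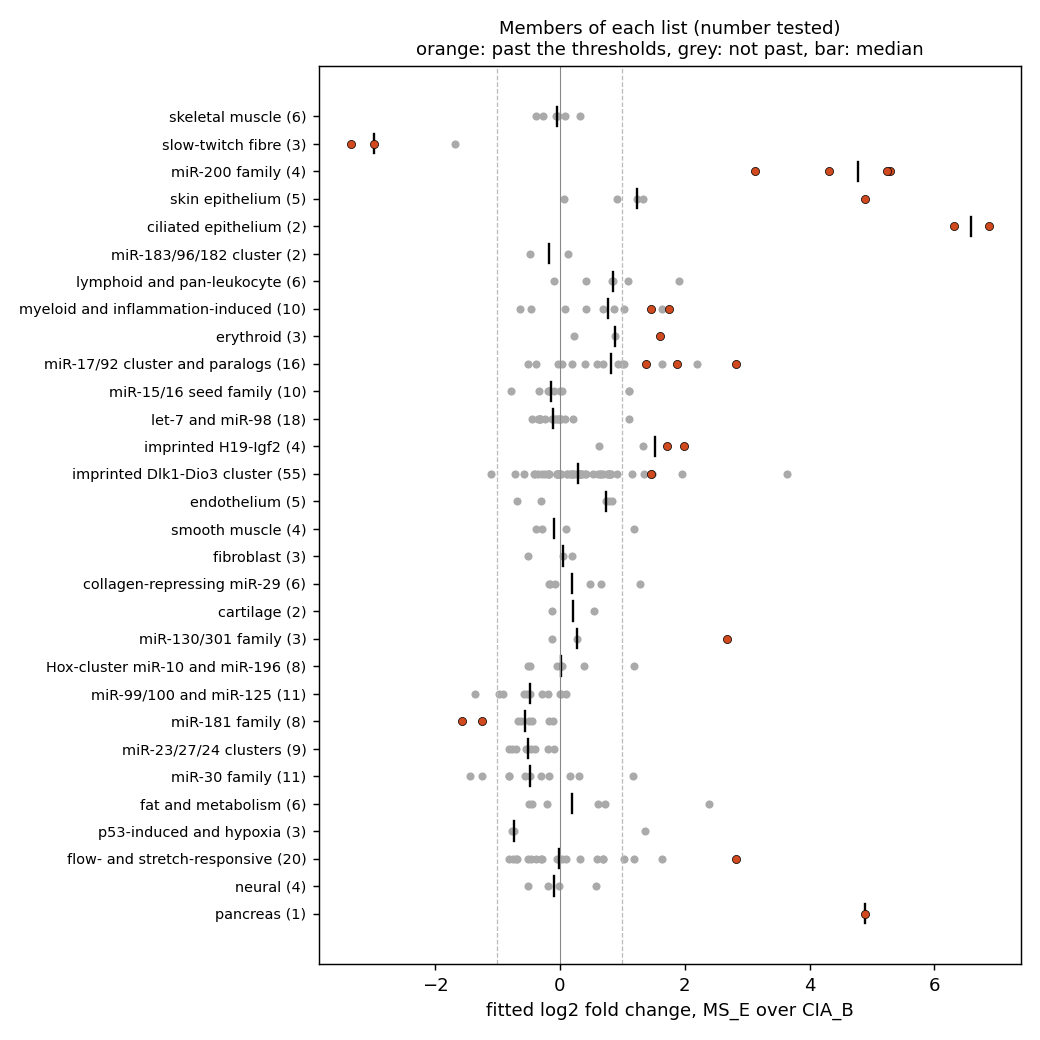
Fitted log2 fold change, MS_E over CIA_B, of the tested members of each list, with the number tested in brackets, members past the thresholds in orange and the list median as a bar. The slow-twitch list has a median of -2.97, the skeletal muscle list one of -0.04 and the miR-200 list one of 4.78.

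The placebo group shows what 1 h after an injection elsewhere in the body gave. It shares the CIA_B libraries with the comparison above, so that the 2 sets of changes are not independent. PLA_E against CIA_B had 2 of 359 past the thresholds (0.557%), 1 of them among the 23, miR-672-5p (log2 fold change 1.50, edgeR unadjusted p = 0.0236). For miR-208b-3p the fitted placebo change was -1.76 beside -3.35, with PLA_E at 221.9 and 55.7 cpm, and for miR-499-5p -1.18 beside -2.97, with PLA_E at 147.3 and 57.4 cpm. For miR-20a-5p it was 1.01 beside 1.88, with PLA_E at 25.5 and 15.5 cpm, and for miR-223-3p 0.96 beside 1.75, with PLA_E at 52.0 and 25.1 cpm. The means of PLA_E thus lay between those of CIA_B and MS_E for these 4, although its lower miR-208b-3p value fell inside the MS_E range and its lower miR-223-3p value inside the CIA_B range.

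Tested directly, MS_E differed from PLA_E by the same thresholds for 14 of 359 miRNAs (3.9%), none with an adjusted p under 0.05 in edgeR (smallest 0.832, 14 with an unadjusted p under 0.05), and 2 with DESeq2. The count was 7 without MS_E replicate 1, 35 without MS_E replicate 2, 8 without PLA_E replicate 1 and 12 without PLA_E replicate 2. Of the 23, 7 were among the 14, miR-34c-5p, miR-449a-5p, miR-141-3p, miR-200b-3p, miR-19a-3p, miR-19b-3p and miR-675-3p. For miR-34c-5p, miR-449a-5p, miR-141-3p and miR-200b-3p, MS_E replicate 2 did not lie above both PLA_E libraries. In that order it was at 6.71, 1.25, 3.43 and 1.72 cpm. PLA_E was at 7.91 and 14.9, 3.62 and 1.38, 5.23 and 3.03, and 2.28 and 0.552 cpm. miR-675-3p was at 19.2 and 14.6 cpm in PLA_E, below both MS_E libraries (log2 fold change of MS_E over PLA_E 1.15, edgeR unadjusted p = 0.028), and miR-19a-3p at 4.82 and 0.828 cpm, also below both (1.89, unadjusted p = 0.0303). miR-19b-3p was at 51.7 and 22.1 cpm in PLA_E (1.33, unadjusted p = 0.046). For the slow-fibre pair the difference between MS_E and PLA_E did not pass, at -1.58 for miR-208b-3p (edgeR unadjusted p = 0.163) and -1.79 for miR-499-5p (unadjusted p = 0.0553), while miR-499-3p passed (-1.92, unadjusted p = 0.0464) on 1 and 2 reads in MS_E and 23 and 2 reads in PLA_E. The difference did not pass for miR-20a-5p (0.87, unadjusted p = 0.118) or miR-223-3p (0.80, unadjusted p = 0.182). A change past the thresholds against CIA_B is therefore not shown to be particular to stimulation for any of the 23 outside the 7. Besides miR-208b-3p, miR-499-5p, miR-20a-5p and miR-223-3p, this holds for miR-181d-5p (MS_E over PLA_E -0.85, edgeR unadjusted p = 0.105) and miR-181c-3p (-0.91, unadjusted p = 0.0715), among others. After adjustment it is not shown for the 7 either (edgeR adjusted p = 0.832 for each).

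In the 34 day libraries the levels of several of these miRNAs lay on either side of those before therapy. miR-208b-3p ranged from 61.8 to 690 cpm over those 4 libraries and miR-499-5p from 55.9 to 336 cpm, each range holding both CIA_B values, and all 4 values were above both MS_E libraries. miR-675-3p ranged from 8.78 to 16.4 cpm, near CIA_B and below MS_E. miR-20a-5p ranged from 17.9 to 38.4 cpm and miR-223-3p from 43.3 to 57.4 cpm, above both CIA_B libraries in all 4, as was miR-672-5p at 2.49 to 4.56 cpm. miR-34c-5p did not go beyond 17.6 cpm nor miR-449a-5p beyond 1.83 cpm, so that MS_E replicate 1 stood apart from all 9 other libraries in both.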

How the data were processed

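Small RNA was sequenced from 10 libraries, and groups were taken from the labels. The authors trimmed adapters, discarded short reads, mapped to rn4 and miRBase with the miRDeep2 scripts, and deposited counts per precursor and mature miRNA, as whole numbers without normalization. The submitters' processing notes name CASAVA 1.8 and Bowtie. The largest count over precursors was used for the 35 miRNAs with several. A table with 20 columns of values that match no label was not used.

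All fold changes come from edgeR 4.0.16 (R 4.3.3), which was given the deposited counts of all 10 libraries with TMM scaling, a mean per group and a prior count of 2, and whose quasi-likelihood test gave the p-values. Adjusted p-values are Benjamini-Hochberg values over the 359 miRNAs tested. The value after each ± (SE) came from a second fit with no prior count. It is the size of that fit's log2 fold change over the square root of the quasi-likelihood F statistic. The spread behind it is estimated over all 10 libraries. The SE therefore need not match the fold change printed beside it, most of all at low counts. With 2 libraries against 2, an exact two-sided permutation test cannot go below 0.333, so none was made. The scripts were tested on simulated data. The libraries of a group are not duplicates.

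The members and lists were chosen with earlier results of these data known. Named miRNAs are those past the thresholds or with a DESeq2 adjusted p under 0.05, their other arms and seed partners, up to 3 most abundant members of each list, and untested miRNAs apart in reads; others were chosen after their values were seen. Alternatives were limma-voom (limma 3.58.1), DESeq2 1.42.0, other scalings, filters, library sets and counts, and a block. Figures and tables were made with Python 3.11.15, pandas 2.3.3, scipy 1.17.1 and matplotlib 3.10.9.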

Additional observations from a re-analysis of the deposited data

How the results depend on the processing

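Against CIA_B the 23 miRNAs past the thresholds became 13 when limma-voom was fitted to just the 4 libraries of the comparison, 38 with no filter and 41 with a term for the kind of library, and stayed within 1.5 times under the other alternatives, except with the crossed replicate numbers. Those with an adjusted p under 0.05 went from 0 to 8 with DESeq2. Without single libraries the count ranged from 16 to 32, and that by adjusted p from 0 to 5, the higher values both without MS_E replicate 2. Against PLA_E the 14 became 9 with limma-voom, 2 with limma-voom on the 4 libraries, 29 with no filter, 8 with a mean of at least 100 counts and 22 with the term, with 2 by adjusted p in DESeq2, and ranged from 7 to 35 without single libraries (0 to 5 by adjusted p).

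The labels give no meaning to the replicate numbers, and same-numbered libraries of MS_E and CIA_B deviated in opposite directions (correlation -0.447). With the replicate block 21 passed against CIA_B and 12 against PLA_E, and of the 23 it lost miR-19b-3p, miR-224-5p, miR-375-3p and miR-451-5p. With the numbers crossed on the 4 libraries, an alternative chosen after seeing the data, 38 passed, 5 of them by adjusted p.

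Signs turned for miR-375-3p (-1.44 without MS_E replicate 1, up to 6.75 without CIA_B replicate 2) and miR-449a-5p (-0.10 without MS_E replicate 1, up to 7.28 without MS_E replicate 2). Of seed partners that had not passed, leaving out a library gave -0.21 to 0.46 for miR-93-5p, -0.70 to 0.28 for miR-181a-5p, -0.16 to 0.82 for miR-130a-3p and -0.71 to 0.65 for miR-181a-1-3p, and a mean of at least 100 counts gave 0.051 for miR-181a-5p and 0.00069 for miR-181a-1-3p. The causes were not tested. Of the 23, 11 passed under every alternative that tested them other than leaving out a library. Depth limits CIA_B replicate 1 most.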

Other observations

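Among miRNAs at low counts that were not tested, 4 had more than 3 reads in both MS_E libraries and at most 3 in both CIA_B libraries. miR-429, of the miR-200 family, had 85 and 13 reads in MS_E and 0 and 2 in CIA_B, a ratio of pooled and scaled reads of 30.3 (exact 95% counting interval 8.16 to 253) and of 8.07 (1.83 to 73.7) with MS_E replicate 2 alone, and 0 to 9 reads in the other 6 libraries. miR-16-3p had 16 and 4 reads in MS_E and 0 and 1 in CIA_B, and miR-20b-5p, a paralog of miR-20a-5p, had 19 and 4 reads against 0 and 0. miR-146b-3p had 4 and 5 reads against 1 and 2, with a ratio of 1.85 (0.462 to 10.6), which does not set the groups apart.

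Further products of the miR-34 and miR-449 loci, chosen after their values were seen, were in MS_E replicate 1 as well. miR-34b-5p had 455 reads there and 0 in MS_E replicate 2, miR-34b-3p 260 and 8, miR-34c-3p 100 and 1, and miR-449c-5p 92 and 0. In the other 8 libraries none of these 4 had more than 4 reads. miR-494-3p, also chosen after its values were seen, showed the opposite, its level being 0.926 cpm in the first MS_E library but 33.7 cpm in the second, and it lay at 17.4 cpm in MS_A replicate 2, with high miR-1, and at 1.90 cpm in MS_A replicate 1. In CIA_B it had 2 and 5 reads, and it did not pass (log2 fold change 3.64, edgeR unadjusted p = 0.105). The fold change was -0.12 without MS_E replicate 2. With the term for the kind of library it passed (2.05, edgeR unadjusted p = 0.0476, adjusted p = 0.381).

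For 12 miRNAs both MS_E libraries lay above all 8 other libraries, and 7 of these belong to the imprinted Dlk1-Dio3 cluster, whose miRNAs are expressed from the maternal copy, a list that makes up 15.3% of the miRNAs tested. Except for miR-495 their changes against CIA_B did not pass. miR-379-5p was at 80.3 and 74.8 cpm against at most 71.0 cpm elsewhere (log2 fold change 0.80, edgeR unadjusted p = 0.274), and miR-376c-3p at 6.79 and 10.9 cpm against at most 6.70 cpm (0.82, unadjusted p = 0.237). For 18 miRNAs both lay below all 8 others, none of them of that cluster. Among them miR-30e-5p was at 4991 and 5982 cpm against at least 7121 cpm elsewhere (-0.81, unadjusted p = 0.103), miR-27a-3p at 909 and 1218 cpm against at least 1424 cpm (-0.77, unadjusted p = 0.0827), and miR-210-3p, induced by low oxygen, at 18.99 and 13.43 cpm against at least 23.4 cpm (-0.74, unadjusted p = 0.142).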
